A study of Mus musculus with 10 samples.

Results

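The extracellular matrix proteases of the ADAMTS and MMP families and their TIMP inhibitors were examined in dorsal root ganglia (DRGs), which hold the cell bodies of sensory neurons together with glia, vessels and connective tissue. The genes were all those whose symbol starts with Adamts, or with Mmp or Timp followed by a number, and that were read by a probe set assigned to 1 gene only. This gave 49 of the 19938 genes tested, comprising 18 ADAMTS proteases, 5 ADAMTS-like genes, 22 MMPs and 4 TIMPs. Symbols alone decided membership, and where a gene had several probe sets the one with the highest mean over the 10 arrays was used, as for 4 of the 49.

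Lkb1 KO embryos were compared with WT embryos at E13.5, with 5 pools of each and DRGs of 2 embryos in a pool, so that n counts pools. In the Lkb1 KO, floxed Lkb1 (gene symbol Stk11) was deleted by Cre under the control of Wnt1, which acts in the neural crest lineage that forms DRG neurons and glia and also in the dorsal neural tube and midbrain. Cells of other lineages in the ganglion, such as endothelium, lie outside that deletion, and the methods describe the WT controls as littermates and the animals as being of mixed background. RNA of each pool was read on 1 single-colour Affymetrix array, and the values are the authors' log2 expression levels after RMA, a background correction, normalization and summary of each probe set.

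ADAMTS enzymes are secreted zinc metalloproteases with thrombospondin-type repeats, which trim proteoglycans, procollagens and microfibril proteins. MMPs cut collagens, laminins, growth factor carriers and other proteases, and many are made as inactive precursors. TIMPs block the active site of MMPs and of some ADAM and ADAMTS enzymes, and proteases of these families are known for clearing paths for migrating cells and growing axons and for turning over the matrix that holds guidance cues.

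Stk11 itself was lower in every Lkb1 KO pool, at 7.78 ± 0.11 in Lkb1 KO and 8.70 ± 0.22 in WT DRGs (SD, n = 5 each), a log2 fold change of -0.92. Array medians lay between 6.501 and 6.57. In 2 Lkb1 KO pools, replicates 2 and 5, the mean of 3 Y-linked genes was 5.02 and 5.21, against 8.80 to 9.81 in the other 8 pools, so these 2 pools stand apart and results are also given without them where a call depends on it. Xist, an X-linked RNA made by female cells, divided the pools further. It read 4.89 for Lkb1 KO replicate 3, and 5.06, 4.48 and 5.46 for WT replicates 1, 3 and 5. Every remaining pool had between 11.70 and 12.37. WT pools 2 and 4, like Lkb1 KO pools 1 and 4, were therefore high for both Xist and the Y-linked genes. By these genes the sex of the embryos was not balanced between genotypes, and its effect was not tested on its own. Marker lists also differed between the groups. The mean of the 10 fibroblast and mesenchyme markers was 9.17 to 9.24 in Lkb1 KO and 8.84 to 8.96 in WT pools, with 8 of 10 called higher, and 7 of 7 proliferation markers were called higher, at list means of 8.88 to 9.15 in Lkb1 KO and 8.49 to 8.72 in WT. The sensory neuron markers averaged 9.96 to 10.09 in Lkb1 KO and 10.14 to 10.30 in WT, with 2 of 11 called lower, and those of Schwann and satellite glia 9.11 to 9.13 in Lkb1 KO and 9.17 to 9.21 in WT, with 1 of 6 lower. No sensory neuron, glial or mesenchymal marker was in the dimmest 30% of genes. Of the other lists, cartilage and sclerotome had 2 of 7 called higher and endothelium 1 of 8, meninges had 1 higher and 1 lower of 6, and pericyte and smooth muscle (8), macrophage (8) and skeletal muscle (7) had none, although muscle markers averaged 5.77 in Lkb1 KO replicate 3 and 5.10 to 5.20 in the other 9 pools.

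Of the 49 genes, 4 were higher in Lkb1 KO DRGs at an adjusted p under 0.05 (limma, Benjamini-Hochberg over all 19938 genes), namely Adamts20, Adamts17, Adamts15 and Timp1. Another 2, Adamts5 and Adamtsl2, were lower, and 43 were not called. Over all genes tested 2.49% were called higher and 1.38% lower. A threshold of 0.01 left 3 higher and 1 lower, with 1.57% of all genes called in either direction, and at an unadjusted p under 0.05 there were 11 higher and 2 lower, with 15.3% of all genes. The share of the 49 genes called in either direction was 12.2%, against 3.87% of all genes, and 20% against 5.37% once the dimmest 30% of genes were set aside. The median log2 fold change of the 49 was 0.0375, with 34 above 0, while over all genes it was -0.0017. All Lkb1 KO pools lay above all WT pools for 5 genes and below them for 2, and over all genes these shares were 3.09% and 2.24%. The changes were small, from a fall of 0.25 to a rise of 0.59 on the log2 scale, and in these bulk pools fewer cells of a type and less RNA per cell cannot be told apart.

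**Figure D1:**
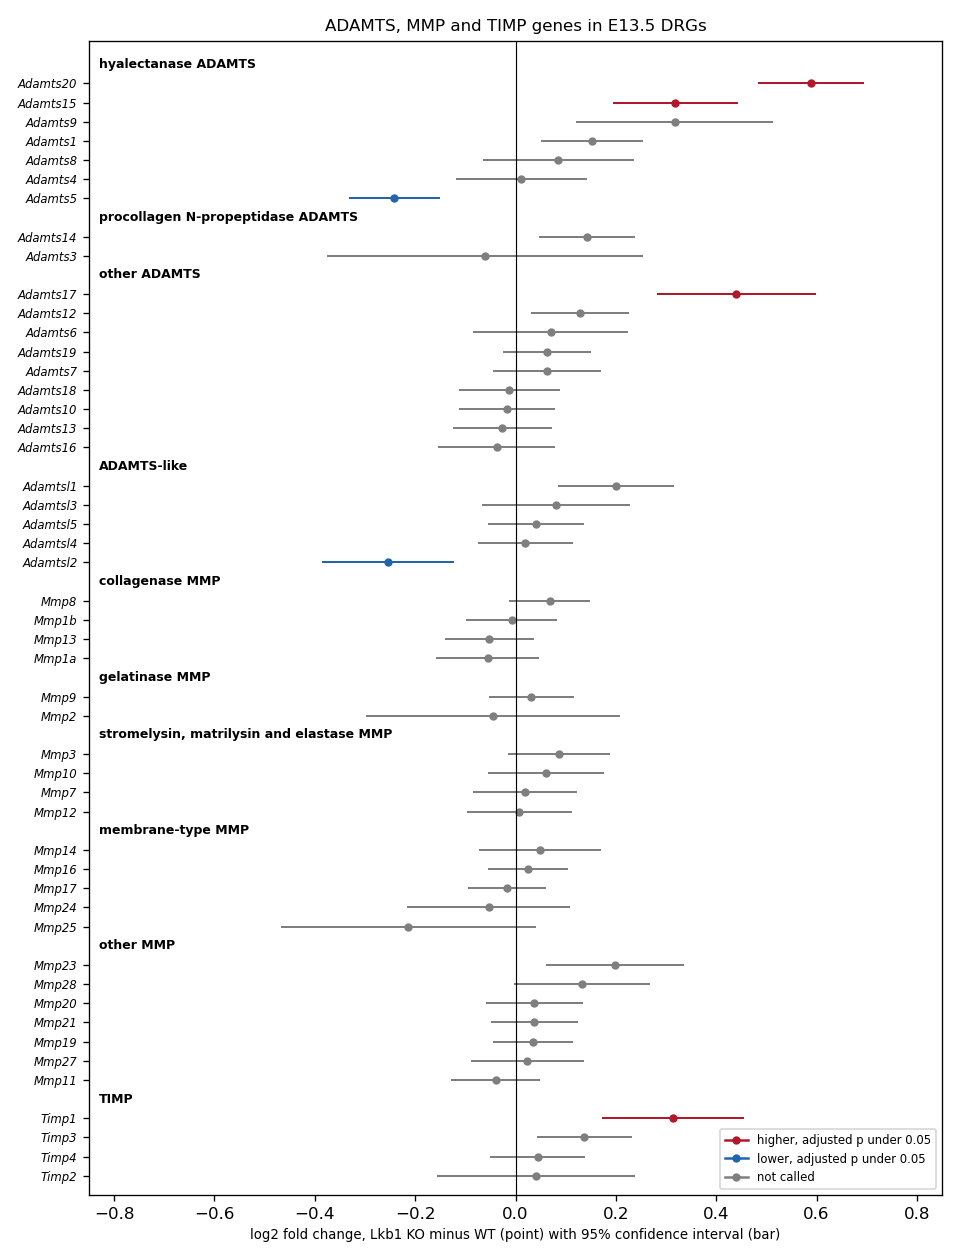
Log2 fold change (Lkb1 KO minus WT, horizontal axis) of each of the 49 genes, grouped by role, as a point with its 95% confidence interval from limma as a bar (n = 5 pools each). Red marks the 4 genes called higher, blue the 2 called lower and grey the 43 not called; every MMP interval lies in grey, and Adamts20 at 0.59 is farthest to the right.

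The starts of these genes are shown first, because the MMP gene cluster on chromosome 9 differs from the other members in the letters found there. RefSeq windows (GRCm38.p6) of 300 bases, from 250 before to 50 after a gene's start, were on hand for 34 of the 49 genes, in 37 windows, and were searched on both strands for 4 short motifs. These were TGAGTCA, known as the AP-1 element, TGACGTCA, known as the cyclic AMP response element, TATAAA, the TATA box, and GGGCGG, the GC box. None of the motifs contains another. The windows of Adamts20, the gene with the largest change, of Timp1, the inhibitor that was called, and of Mmp13, an MMP that was not, run 5′ to 3′ on the gene's strand at chr15:94404301-94404600 (minus strand), chrX:20869916-20870215 (plus strand) and chr9:7272264-7272563 (plus strand), with matches to any of the motifs in capitals.
Adamts20: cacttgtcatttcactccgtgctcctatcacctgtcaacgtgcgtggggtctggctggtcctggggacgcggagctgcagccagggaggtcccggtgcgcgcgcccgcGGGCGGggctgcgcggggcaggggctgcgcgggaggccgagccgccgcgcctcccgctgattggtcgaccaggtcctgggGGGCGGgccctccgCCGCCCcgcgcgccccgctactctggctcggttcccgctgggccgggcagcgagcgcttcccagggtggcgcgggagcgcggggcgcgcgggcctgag
Timp1: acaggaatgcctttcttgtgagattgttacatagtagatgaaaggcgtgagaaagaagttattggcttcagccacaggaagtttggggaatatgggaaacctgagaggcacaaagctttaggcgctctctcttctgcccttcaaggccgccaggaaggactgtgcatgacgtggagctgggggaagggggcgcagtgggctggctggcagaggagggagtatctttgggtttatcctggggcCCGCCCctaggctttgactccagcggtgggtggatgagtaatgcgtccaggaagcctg
Mmp13: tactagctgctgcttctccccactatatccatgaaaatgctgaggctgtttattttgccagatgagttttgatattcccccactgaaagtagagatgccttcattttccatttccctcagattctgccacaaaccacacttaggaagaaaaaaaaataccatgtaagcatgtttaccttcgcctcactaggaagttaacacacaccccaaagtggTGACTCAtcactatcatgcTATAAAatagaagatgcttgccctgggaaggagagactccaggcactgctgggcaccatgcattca

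The Adamts20 window held 3 copies of GGGCGG counting both strands, that of Timp1 held 1, and neither held the other motifs, while Mmp13 held 1 TGAGTCA on the minus strand and 1 TATAAA. The GC box was found in 20 of the 37 windows, or 54.1%, against 35.7% of the 32851 windows in the table, and in 7 of 9 ADAMTS, 4 of 4 ADAMTS-like, 3 of 4 TIMP and 6 of 20 MMP windows. None of the 12 windows of the chromosome 9 cluster held it, so all 6 MMP windows with it lie outside the cluster. TGAGTCA was found in 7 of the 37, or 18.9%, against 5.20% of all windows, and TATAAA in 12, or 32.4%, against 13.6%. TGACGTCA was in none of the 37, and in 1.79% of all windows. All 7 windows with TGAGTCA belonged to the chromosome 9 cluster, and these 29-base stretches show the motif in capitals.
Mmp13: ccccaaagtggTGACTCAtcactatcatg
Mmp12: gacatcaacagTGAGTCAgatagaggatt
Mmp1b: gttacaaagccTGAGTCAtatagcctctg
Mmp3: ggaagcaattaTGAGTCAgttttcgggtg
Mmp1a: gttgtcaaccaTGAGTCAcatagcctctg
Mmp10: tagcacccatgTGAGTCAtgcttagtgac
Mmp7: aagtgtgcaaaTGAGTCAcctatttccac

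The centre of the motif lay between 32 bases (Mmp13) and 90 bases (Mmp1b) before the gene's start. A match is a description of letters and not evidence of a bound site, and an absent match says only that the letters are not in this window.

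The hyalectanases are the ADAMTS enzymes that cut versican, aggrecan and related hyaluronan-binding proteoglycans. Of 7 measured, 2 rose in Lkb1 KO DRGs (Adamts20 and Adamts15) and 1 fell (Adamts5), with a median log2 fold change of 0.15. Adamts20, a versican-cutting enzyme that mouse melanoblasts need to colonise the skin, stood at 6.21, 6.25, 6.24, 6.20 and 6.16 in the 5 Lkb1 KO pools and at 5.61, 5.55, 5.51, 5.75 and 5.70 in the 5 WT pools. The groups were far apart, and the 5 Lkb1 KO values spanned less than the WT values. This was a log2 fold change of 0.59 (SE 0.048, 95% interval 0.48 to 0.69), which is 1.50-fold, with an adjusted p of 2.6e-05 from limma.

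Adamts15, which also cuts versican, was at 8.19, 8.28, 8.43, 8.12 and 8.25 in Lkb1 KO and at 7.996, 7.85, 8.02, 7.93 and 7.88 in WT pools. Every Lkb1 KO pool was above every WT pool, by a margin that was narrow between Lkb1 KO replicate 4 and WT replicate 3. Its log2 fold change was 0.32 (SE 0.057), or 1.25-fold (limma, adjusted p = 0.00726), and without the Lkb1 KO pools 2 and 5 the adjusted p was 0.0531.

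Adamts5, the main aggrecan-cutting enzyme of mouse cartilage and also a versicanase, ran the other way. It stood at 10.02, 10.03, 9.98, 9.97 and 9.94 in Lkb1 KO and at 10.33, 10.25, 10.22, 10.15 and 10.19 in WT pools. All 5 Lkb1 KO values were below the lowest WT value. In limma the log2 fold change was -0.24 (SE 0.041, 95% interval -0.33 to -0.15, adjusted p = 0.0050), with WT 1.18-fold higher. Adamts20, Adamts17 and Adamts5 kept their calls in all 22 alternative settings, which include each pool left out in turn.

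**Figure D2:**
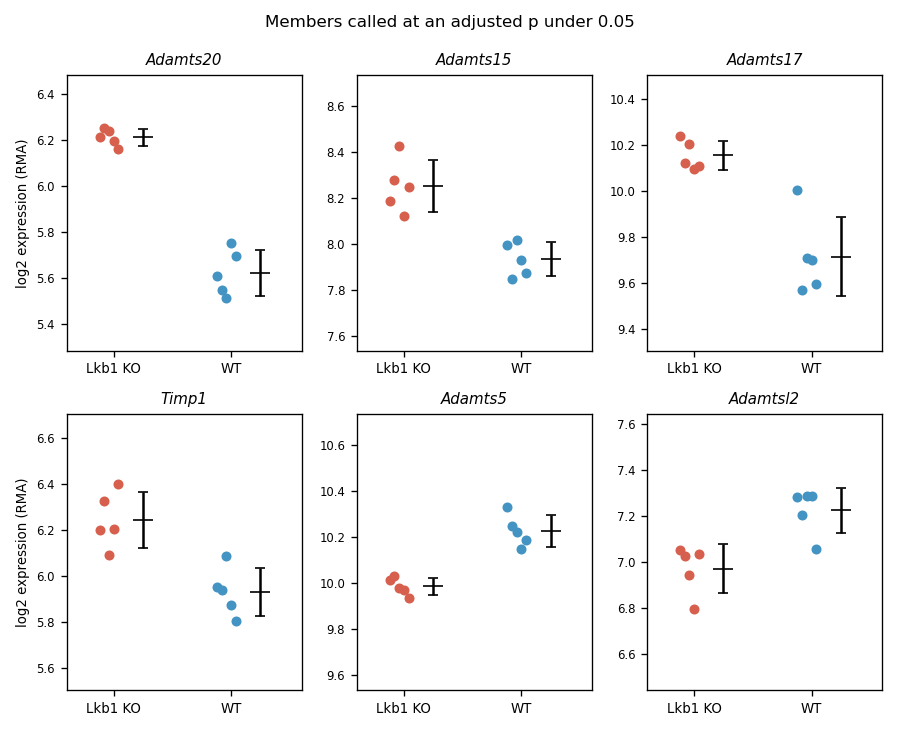
Log2 expression (RMA, vertical axes of equal span) of the 6 called genes in each pool, with Lkb1 KO in red on the left and WT in blue on the right of each panel; the bar beside the points is the mean ± SD of 5 pools. The groups do not overlap in any panel, and in Adamtsl2 the closest values are 7.05 in Lkb1 KO and 7.06 in WT.

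Adamts9, an enzyme related in sequence to Adamts20 that cuts versican and aggrecan, was at 9.64, 9.46, 9.30, 9.42 and 9.34 in Lkb1 KO and at 9.46, 9.08, 9.07, 8.96 and 9.01 in WT pools. WT replicate 1 lay among the Lkb1 KO values and the other 4 WT pools below all of them. Its log2 fold change of 0.32 (SE 0.090) was as large as that of Adamts15, but its adjusted p from limma was 0.0779. A limma fit with the replicate block gave 0.00388, and without WT replicate 1 it was 0.00551. In each of the 5 same-numbered pairs the Lkb1 KO pool was the higher.

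Adamts1, a versicanase induced in inflammation and at ovulation, was at 8.23, 8.33, 8.07, 8.14 and 8.19 in Lkb1 KO and at 8.02, 8.04, 8.06, 8.02 and 8.05 in WT pools. The groups did not overlap, but the lowest Lkb1 KO and highest WT pools nearly touched. In limma this gave a log2 fold change of 0.15 (SE 0.046, adjusted p = 0.100). Adamts4 and Adamts8, aggrecan- and versican-cutting enzymes in the dimmest 30% of genes, had log2 fold changes of 0.012 and 0.085 and adjusted p-values of 0.958 and 0.646 from limma.

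Versican itself (Vcan), the substrate these enzymes share, was among the genes of matrix proteolysis measured beside them. Vcan was at 9.70, 10.03, 9.997, 10.03 and 10.12 in Lkb1 KO and at 9.21, 9.58, 9.65, 9.59 and 9.76 in WT pools. WT replicate 5 lay just above Lkb1 KO replicate 1, the only overlap. Vcan rose by 0.41 on the log2 scale (SE 0.099), or 1.33-fold, at an adjusted p of 0.0349 (limma) that became 2.68e-04 when blocked on the replicate number. The call was lost in 11 of 22 alternatives. From limma the adjusted p was 0.189 once the Y-linked mean was a covariate and 0.190 without Lkb1 KO pools 2 and 5. Vcan was the only one called of 8 hyalectan substrates and link proteins, and aggrecan (Acan), brevican (Bcan) and neurocan (Ncan) were not called. The fibroblast and mesenchyme list was also higher in Lkb1 KO as a group, at 9.17 to 9.24 against 8.84 to 8.96 in WT. Vcan, Adamts15 and Adamts20 shared that direction between groups, and Adamts5 did not. The part of the list in these results was not tested.

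Of the remaining ADAMTS proteases, 9 have other or less settled substrates, and 1 of them rose. Adamts17, an enzyme of the fibrillin microfibril whose loss in humans causes a Weill-Marchesani-like syndrome, was at 10.24, 10.12, 10.20, 10.10 and 10.11 in Lkb1 KO and at 10.0015, 9.57, 9.71, 9.70 and 9.59 in WT pools. No WT pool reached the Lkb1 KO values, and WT replicate 1 came closest to them. This amounted to a log2 fold change of 0.44 (SE 0.072, 95% interval 0.28 to 0.60), or 1.36-fold, with an adjusted p of 0.00412 from limma.

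Adamts17 was read by 5 probe sets, and all 5 had a positive log2 fold change, between 0.28 and 0.65. In a fit over the 21789 probe sets assigned to 1 gene, 4 of the 5 were called higher and had no overlap between groups. The fifth and dimmest had an adjusted p of 0.246 from limma. The share over all probe sets was not counted. In the fit by gene 2.49% of all genes were called higher and 3.09% had every Lkb1 KO pool above every WT pool. Probe sets of 1 gene share the same RNA and are not replicates of each other.

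Adamts12, which cuts cartilage oligomeric matrix protein, had a log2 fold change of 0.13 (SE 0.044, adjusted p = 0.161 from limma). Adamts7, its close relative, was at 0.062, and Adamts10, a further fibrillin-associated enzyme, at -0.017. Adamts13, the protease of von Willebrand factor, was in the dimmest 30% of genes and at -0.026, and Adamts6, Adamts16, Adamts18 and Adamts19 lay between -0.038 and 0.070. None of these 8 was called.

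Procollagen N-propeptidases remove the amino-terminal propeptide from fibrillar procollagens, and neither of the 2 measured was called. Adamts3, which also activates the lymphatic growth factor precursor Vegfc, was at 10.12, 9.50, 9.75, 9.36 and 9.55 in Lkb1 KO and at 10.12, 9.45, 9.83, 9.58 and 9.61 in WT pools. Replicate 1 was the highest pool of both genotypes, and the ranges overlapped almost fully. Its log2 fold change was -0.060 (SE 0.14, adjusted p = 0.904 from limma, 95% interval -0.37 to 0.25). All 16 of its probe sets had a negative fold change, between -0.17 and -0.023, with 0 called, and with the block an adjusted p of 0.542 for the gene. At an SD within groups of 0.28 Adamts3 varied most of the 49 genes.

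Adamts14 had values of 5.55, 5.44, 5.56, 5.45 and 5.34 in Lkb1 KO and of 5.31, 5.36, 5.33, 5.33 and 5.31 in WT pools. Only Lkb1 KO replicate 5 fell within the narrow WT range. Its log2 fold change was 0.14 (SE 0.043), and the adjusted p from limma was 0.103, or 0.0431 with the Y-linked covariate and 0.0406 without Lkb1 KO pools 2 and 5.

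**Figure D3:**
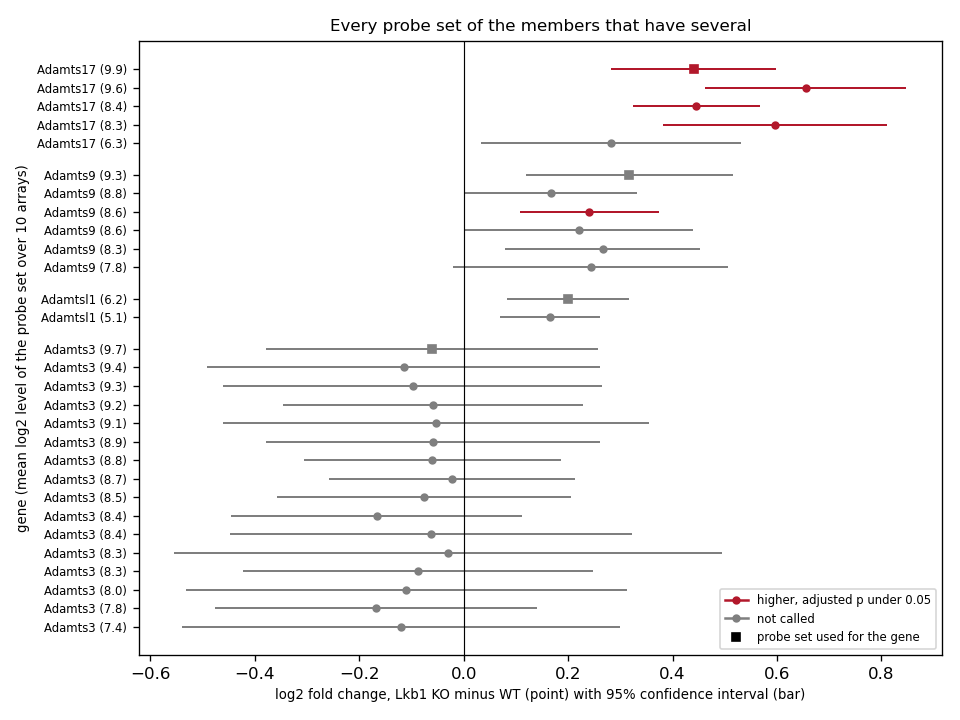
Log2 fold change (Lkb1 KO minus WT) with its 95% confidence interval for every probe set of the 4 genes that have several, labelled with the mean log2 level of the probe set; squares mark the probe set used for the gene and red a call over 21789 probe sets. The 5 Adamts17, 6 Adamts9 and 2 Adamtsl1 probe sets all lie right of 0, and the 16 of Adamts3 all lie left of 0 with intervals that cross it.

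All 6 probe sets of Adamts9 had a positive log2 fold change, between 0.17 and 0.32, and 1 was called (0.24, adjusted p = 0.0477 from limma over 21789 probe sets). Both probe sets of Adamtsl1 were positive, at 0.20 and 0.17.

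ADAMTS-like proteins carry the thrombospondin repeats of the family without the protease domain, and 1 of 5 was called. Adamtsl2, which binds microfibrils and the latent complex of transforming growth factor beta and is mutated in human geleophysic dysplasia, was at 7.05, 7.03, 6.94, 6.79 and 7.04 in Lkb1 KO and at 7.28, 7.21, 7.29, 7.29 and 7.06 in WT pools. The groups met without overlap, since WT replicate 5 was only just above the highest Lkb1 KO pool. Adamtsl2 fell by 0.25 on the log2 scale (SE 0.060, limma adjusted p = 0.0333), with WT 1.19-fold higher. The call was lost in 10 of 22 alternatives, and with 1 pool left out the adjusted p ran from 0.0125 to 0.0926. Without Lkb1 KO pools 2 and 5 it was 0.0645 from limma.

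Adamtsl1 (punctin) was at 6.29, 6.46, 6.28, 6.35 and 6.30 in Lkb1 KO and at 6.28, 6.12, 6.08, 6.03 and 6.17 in WT pools. WT replicate 1 matched the lowest Lkb1 KO pools and the other 4 were below. It had a log2 fold change of 0.20 (SE 0.053), with an adjusted p of 0.0568 from limma that passed the threshold in 5 of 22 alternatives, among them WT replicate 1 left out (0.0252). Adamtsl3, Adamtsl4 and Adamtsl5 had log2 fold changes of 0.080, 0.020 and 0.040, none called.

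No MMP was called among 22 by limma or by the analysis of variance per gene, and 1 in limma and 2 in the analysis of variance had an unadjusted p under 0.05. Of the 22, 14 were in the dimmest 30% of genes. With the Y-linked covariate, and without Lkb1 KO pools 2 and 5, Mmp23 and Mmp28 passed the threshold in limma.

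The gelatinases degrade denatured collagen and basement membrane. Mmp2 was at 8.90, 8.53, 8.76, 8.93 and 9.11 in Lkb1 KO and at 9.03, 8.87, 8.96, 8.51 and 9.09 in WT pools. The values intermingled, and the log2 fold change was -0.045 (SE 0.12, 95% interval -0.30 to 0.21, adjusted p = 0.911 from limma). Mmp9, in the dimmest 30%, was at 0.032.

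Membrane-type MMPs act at the cell surface. Mmp14, which activates the precursor of Mmp2 together with Timp2, was at 9.09, 9.35, 9.19, 9.33 and 9.33 in Lkb1 KO and at 9.13, 9.28, 9.17, 9.27 and 9.18 in WT pools. The WT range lay within the Lkb1 KO range, with a log2 fold change of 0.049 (SE 0.055, 95% interval -0.070 to 0.17, adjusted p = 0.763 from limma). Mmp16 was at 0.025, Mmp24, a member known from neurons, at -0.053 and Mmp17 at -0.018, with adjusted p-values between 0.815 and 0.880 from limma.

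Mmp25 had the lowest fold change of the MMPs. It stood at 7.28, 6.90, 7.08, 6.70 and 6.77 in Lkb1 KO and at 7.44, 7.15, 7.18, 7.17 and 6.86 in WT pools. The ranges overlapped, and each Lkb1 KO pool was below the WT pool of its own number. Its log2 fold change was -0.21 (SE 0.12), and limma gave an adjusted p of 0.434, or 0.0579 when the numbers were blocked.

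Among the other MMPs, Mmp11 (stromelysin-like, and cut to its active form inside the cell by furin) was at 7.55, 7.53, 7.40, 7.42 and 7.501 in Lkb1 KO and at 7.53, 7.52, 7.56, 7.54 and 7.46 in WT pools. Its groups overlapped, with a log2 fold change of -0.040 (SE 0.040, adjusted p = 0.730 from limma). Mmp23, an unusual member anchored by its amino-terminal end, was at 5.44, 5.29, 5.59, 5.61 and 5.41 in Lkb1 KO and at 5.33, 5.20, 5.16, 5.31 and 5.34 in WT pools. Lkb1 KO replicate 2 fell inside the WT range and the other 4 above it. At 0.20 (SE 0.063) its log2 fold change was the highest of the MMPs, and the adjusted p was 0.120 from limma, 0.0298 with the Y-linked covariate and 0.0435 without Lkb1 KO pools 2 and 5.

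Mmp28 (epilysin) was at 6.66, 6.37, 6.54, 6.57 and 6.33 in Lkb1 KO and at 6.45, 6.34, 6.33, 6.35 and 6.33 in WT pools. The 2 Lkb1 KO pools with low Y-linked values were the 2 lowest of their group. The adjusted p was 0.330 from limma, 0.0366 with the Y-linked covariate and 0.0355 without those 2 pools. Mmp19, Mmp20 (the enamel protease), Mmp21 and Mmp27 were between 0.024 and 0.038 in log2 fold change, all in the dimmest 30%.

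The cluster on chromosome 9 holds the collagenases, stromelysins and their neighbours in the order Mmp13, Mmp12, Mmp1b, Mmp3, Mmp1a, Mmp10, Mmp8, Mmp27, Mmp20 and Mmp7, which are the 10 protein-coding genes of that span. All 10 were in the dimmest 30% of genes, with log2 fold changes between -0.056 and 0.087 and 0 called, 0 with an unadjusted p under 0.05 in limma and 1 in the analysis of variance. Of the 10, 7 are those with TGAGTCA in the printed windows, and none of the 7 was called.

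The collagenase Mmp1a was at 4.77, 4.77, 4.82, 4.74 and 4.87 in Lkb1 KO and at 4.95, 4.80, 4.80, 4.93 and 4.76 in WT pools. The groups overlapped, and the log2 fold change was -0.056 (SE 0.047, adjusted p = 0.662 from limma). The stromelysin Mmp10 was at 4.94, 5.05, 5.15, 5.15 and 5.07 in Lkb1 KO and at 5.04, 5.15, 4.99, 4.96 and 4.93 in WT pools. These also overlapped, with a log2 fold change of 0.060 (SE 0.053, adjusted p = 0.678 from limma).

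All 4 TIMPs had a positive log2 fold change and 1 was called. Timp1, an X-linked secreted inhibitor of most soluble MMPs, was at 6.20, 6.33, 6.09, 6.21 and 6.40 in Lkb1 KO and at 5.95, 5.94, 6.08, 5.87 and 5.81 in WT pools. Every Lkb1 KO pool was above every WT pool, with Lkb1 KO replicate 3 and WT replicate 3 almost level. Timp1 rose by 0.31 on the log2 scale (SE 0.064, 95% interval 0.17 to 0.45), or 1.24-fold, with an adjusted p of 0.0167 from limma.

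The 2 Lkb1 KO pools with low Y-linked values were the 2 highest for Timp1. With the Y-linked mean as a covariate the log2 fold change was 0.22 and the adjusted p 0.115 from limma. It was 0.0986 without these 2 pools, 0.0508 without WT replicate 4 and 0.0790 in the analysis of variance.

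Timp3, which binds to the matrix and inhibits several ADAMTS enzymes and Adam17, was at 10.62, 10.67, 10.72, 10.81 and 10.70 in Lkb1 KO and at 10.61, 10.53, 10.51, 10.55 and 10.63 in WT pools. Lkb1 KO replicate 1 and WT replicate 5 overlapped narrowly. The log2 fold change was 0.14 (SE 0.043, adjusted p = 0.116 from limma). Timp2, the partner of Mmp14 in the activation of Mmp2, was at 9.62, 9.52, 9.47, 9.26 and 9.16 in Lkb1 KO and at 9.59, 9.37, 9.38, 9.25 and 9.23 in WT pools. Both groups covered nearly the same range, with replicate 1 the highest in each, at a log2 fold change of 0.041 (SE 0.090, adjusted p = 0.894 from limma).

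Timp4 was at 5.83, 5.69, 5.67, 5.84 and 5.76 in Lkb1 KO and at 5.74, 5.70, 5.76, 5.72 and 5.65 in WT pools. The ranges overlapped, and the 2 highest values were both Lkb1 KO pools. Its difference was 0.044 on the log2 scale (SE 0.043, 95% interval -0.049 to 0.14, adjusted p = 0.716 from limma).

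In the RefSeq gene order, 3 of the TIMP genes lie inside synapsin genes, which encode synaptic vesicle proteins of neurons. Timp1 lies in Syn1 and Timp4 in Syn2, each on the opposite strand, and Timp3 lies in Syn3. The synapsins were chosen after values were seen. Syn3 was at 8.29, 8.28, 8.28, 8.07 and 8.23 in Lkb1 KO and at 8.74, 8.57, 8.81, 8.66 and 8.51 in WT pools. The groups did not overlap, with a log2 fold change of -0.43 (SE 0.062, adjusted p = 0.00183 from limma), while Timp3 was at 0.14. Syn2 was lower as well, at -0.31 (SE 0.066, adjusted p = 0.0221 from limma), and Syn1 was at -0.14 (adjusted p = 0.290). For Syn2 the adjusted p from limma was 0.107 with the Y-linked covariate and 0.104 without Lkb1 KO pools 2 and 5. For each nested pair the fold change of the TIMP gene was positive and that of its host negative, and where the probes lie relative to shared sequence was not examined.

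**Figure D4:**
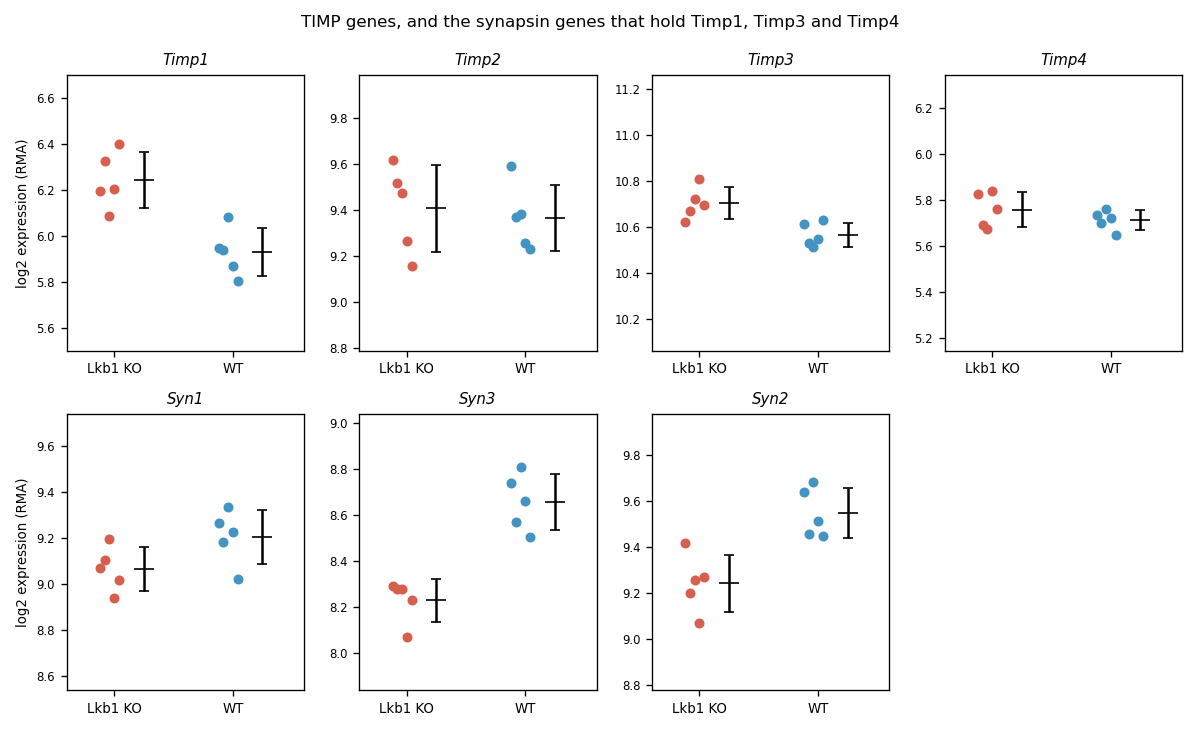
Log2 expression (RMA, vertical axes of equal span) of the 4 TIMP genes, above, and of the synapsin genes that contain Timp1, Timp3 and Timp4, below, with Lkb1 KO pools in red on the left, WT pools in blue on the right and mean ± SD bars (n = 5 each). Timp1 is higher and Syn3 and Syn2 lower in every Lkb1 KO pool than in any WT pool, and the ranges of the groups overlap for Timp2 and for Timp4.

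The other genes of matrix proteolysis, listed as substrates, inhibitors, activators and related proteases, had 41 measured of 43. Of these, 2 were called higher (Vcan and Pcolce) and 2 lower (Pcolce2 and Adam10), which is 9.76% against 3.87% of all genes, with a median log2 fold change of 0.016. Pcolce, which speeds removal of the carboxy-terminal propeptide from procollagen, was at 8.91, 8.90, 8.64, 8.93 and 8.78 in Lkb1 KO and at 8.38, 8.43, 8.26, 8.47 and 8.50 in WT pools. The groups were separate, with a log2 fold change of 0.42 (SE 0.062, adjusted p = 0.00208 from limma), or 1.34-fold.

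Pcolce2, its relative with the same activity, was at 8.20, 8.12, 8.06, 7.85 and 8.16 in Lkb1 KO and at 8.51, 8.28, 8.47, 8.39 and 8.48 in WT pools. All Lkb1 KO pools were below all WT pools, so the 2 enhancers moved in opposite directions. Its log2 fold change was -0.35 (SE 0.066, adjusted p = 0.0112 from limma). Bmp1, the propeptidase whose cutting of procollagen both speed, was the brightest of the 7 astacin proteases and enhancers. Its log2 fold change was -0.015 (adjusted p = 0.964 from limma).

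Adam10, a cell-surface sheddase that cleaves Notch receptors and cadherins, was at 11.63, 11.66, 11.73, 11.65 and 11.68 in Lkb1 KO and at 11.84, 11.81, 11.84, 11.79 and 11.90 in WT pools. The groups were separate at a small distance, with a log2 fold change of -0.17 (SE 0.036, adjusted p = 0.0214 from limma). In limma the adjusted p of Adam10 was 0.108 with the Y-linked covariate and 0.0956 without Lkb1 KO pools 2 and 5. Adam17, the sheddase of tumor necrosis factor that Timp3 inhibits, was at 0.16 (limma adjusted p = 0.0887, and 0.0381 when blocked). None of the 6 other inhibitors or of the 9 activators and clearance receptors was called, and the brightest of these lists, Spock2 and Bsg, were at -0.098 and 0.036 with adjusted p-values of 0.384 and 0.741 from limma. The fibrillin-binding Thsd4 was at -0.073 (adjusted p = 0.555).

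**Figure D5:**
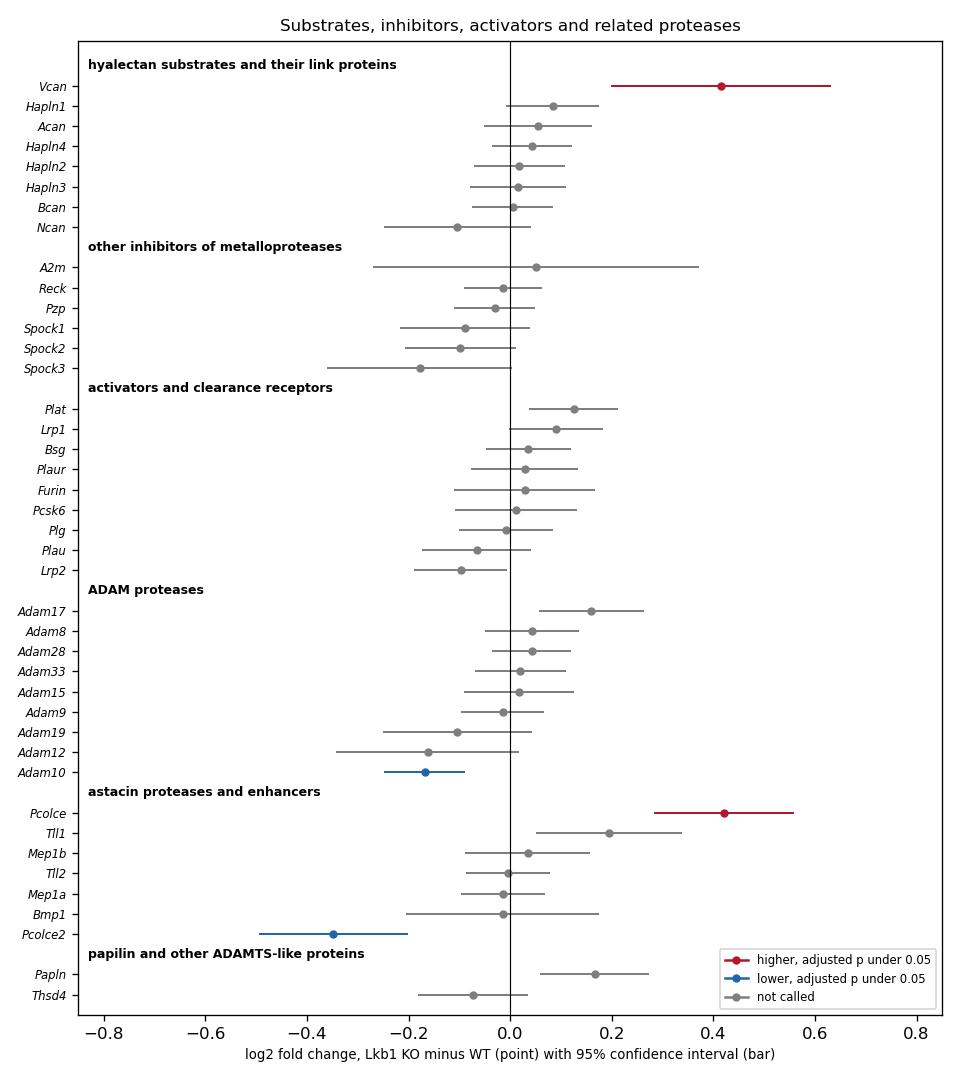
Log2 fold change (Lkb1 KO minus WT) with its 95% confidence interval for the 41 measured substrates, inhibitors, activators and related proteases, grouped by role (n = 5 pools each). Vcan and Pcolce are in red at 0.41 and 0.42, Pcolce2 and Adam10 in blue at -0.35 and -0.17, and the other 37 in grey.

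An exact two-sided permutation test over all assignments of the 10 pools to groups of 5 gave p = 0.00794, the smallest it allows, for each of the 6 called genes of the families. That value follows from the lack of overlap already given and is not separate support. Adamts1, which was not called, had the same p, and of all genes 3.09% were separated upward and 2.24% downward. Exchanging labels within replicate numbers allows 32 assignments and cannot go below p = 0.0625 in an exact test. The spread within groups was similar to that of other genes, at a median SD of 0.072 for the 49 and 0.081 for all genes.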

How the data were processed

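RNA (250 ng per array) of 5 Lkb1 KO and 5 WT pools of E13.5 DRGs was hybridised to 10 arrays. The authors deposited log2 expression values of 35556 probe sets, made with RMA and Partek 6.6 according to the submitters' notes, although the methods give MATLAB. By the platform annotation 21789 probe sets named 1 gene, 1621 named several and 12146 had no gene listed. Per gene the probe set with the highest mean was kept (19938 genes). The groups were set against each other in limma 3.58.1 (R 4.3.3, lmFit and eBayes, two-sided tests), p-values were adjusted by Benjamini-Hochberg across every gene, and summaries were made in Python 3.11.15 with pandas 2.3.3. Tested on simulated data for this comparison (19938 genes), the fit recovered 97 of 100 genes changed by 0.5 and 99 of 100 changed by 1, and called 13 unchanged genes.

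The members and gene lists were chosen with earlier results of these data known. Values per pool are given for called members, the brightest member of each role group, all TIMPs and the largest changes, and for further members chosen after their values were seen.

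Same-numbered Lkb1 KO and WT pools deviated together (correlations of 0.21 to 0.48 across genes). Differently numbered pools had correlations of -0.48 to 0.31, so the 2 ranges overlapped. The replicate block was run as an alternative for this reason, although the labels do not say what a number marks. The calls given come from the fit without the replicate block. The blocked value is added for Adamts9 and Adam17, where it changes a call, and for Vcan, Adamts3 and Mmp25, where it does not. The pools are labelled biological replicates, and p-values measure the spread between them. The number of arrays limits precision, and log2 values of 2 arrays from 1 group differed with an SD of 0.177 to 0.276. Alternatives were other scalings, an analysis of variance per gene, intensity trend, array weights, probe set and brightness choices, the replicate block, a covariate averaging 3 Y-linked genes, and pools left out.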

Additional observations from a re-analysis of the deposited data

Results flagged for a closer look

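In 5 of 98 groups of 5 pools (49 genes in each genotype), 1 pool lay apart by more than 0.71 of its group's whole range, the critical value for 5 samples. Chance gives this in about 5% of groups. Mmp17 in Lkb1 KO had a gap of 0.809, with replicate 5 at 4.84 and the others at 4.89 to 4.90. Mmp28 in WT had a gap of 0.802, with replicate 1 at 6.45 and the others at 6.33 to 6.35. Adamts16 in Lkb1 KO had a gap of 0.769, with replicate 3 at 6.17 and the others at 6.32 to 6.37, and Adamts6 in Lkb1 KO one of 0.768, with replicate 5 at 5.54 and the others at 5.19 to 5.27. Adamts9 in WT had a gap of 0.760, with replicate 1 at 9.46 and the others at 8.96 to 9.08, and it is the one of these genes whose call turned on that pool.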

How the results depend on the processing

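The fit found 4 members higher and 2 lower in Lkb1 KO, and every called gene kept its direction in every alternative run. The count of lower members was 1 in the analysis of variance per gene, without Lkb1 KO replicates 2 and 5 and at an adjusted p under 0.01. With each pool left out in turn, 3 to 6 members were higher and 1 to 2 lower. Of the other genes of matrix proteolysis (2 higher and 2 lower), 1 was higher in the analysis of variance, without Lkb1 KO replicates 2 and 5 and at 0.01. The count lower was 1 in the analysis of variance, with the Y-linked covariate and without Lkb1 KO replicates 2 and 5, and 0 at 0.01. Leaving out each pool gave 1 to 3 higher and 1 to 3 lower. With the replicate block 5 members were higher and 2 lower, the addition being Adamts9, and 3 of the other genes were higher and 2 lower, the addition being Adam17; the block changed no other call of a named gene. Settings in which Adamts15, Timp1, Adamtsl2, Vcan and Adam10 lost their calls are given with their values, though not all of them. Pcolce2 lost its call in the analysis of variance (adjusted p = 0.0649), and the cause of these losses was not tested. Mmp1a and Mmp10 were absent from the fit without the dimmest 30% of genes. Dim genes limit what can be read: 19 of the 49 members were in the dimmest 30%, and 0 of these were called.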
